A study of Homo sapiens with 6 samples.

Results

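FRAT2 and its WNT pathway partners were followed through 3 Burkitt lymphoma lines with and without induced miR-26a. The members were 9 named genes: the GSK3-binding proteins FRAT2 and FRAT1, beta-catenin (CTNNB1), the transcription factors LEF1, TCF7L2 and TCF7, and the scaffold proteins AXIN1, AXIN2 and APC. Each was taken from the deposited table by its symbol in the platform annotation, and a gene was read from its brightest probe set, by the mean of 6 arrays. That gave 8 of the 9 genes, out of 19775 genes with a probe set of their own. TCF7 was not analysed here, because the annotation used here names no probe set for it. The members were chosen by measured values as well as by role: FRAT2 was selected on its lower level with miR26a in these same arrays, and the other genes for their place beside it in the pathway. Its change in that comparison is therefore given as a description, with no test, and the difference of each other gene is tested in a model of all genes.

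Raji, Namalwa and Ramos are established lines of Burkitt lymphoma, a fast-growing tumour of germinal centre B cells in which a translocation drives MYC. Each line gave 1 array labelled miR26a and 1 labelled empty, so both groups held 3 arrays (total RNA, Affymetrix U133 Plus 2.0). Per the labels, all 6 samples, miR26a and empty alike, received doxycycline (0.5 µg/ml, 72 h), the drug that induces the microRNA. No source used here names a promoter, a clone or more than 1 culture per line and group, so the spread behind each p-value is that of these samples and may be technical, and the number of arrays limits the precision.

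In the canonical WNT pathway a WNT ligand binds a Frizzled receptor and an LRP coreceptor, and Dishevelled passes the signal on. Without a ligand, a complex of AXIN, APC, casein kinase and GSK3 marks beta-catenin for destruction. With one, beta-catenin accumulates and joins TCF and LEF proteins on DNA. The FRAT proteins bind GSK3 and keep it away from AXIN and beta-catenin, which raises beta-catenin. In lymphocytes LEF1 is best known from the early stages of B and T cells.

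The sequences shown are those of the induced microRNA and of the promoters of the FRAT genes, a pair of near neighbours whose measured changes with miR26a were unlike. The mature miR-26a-5p is the same from both of its genes, MIR26A1 (chr3:37969413-37969434, plus strand) and MIR26A2 (chr12:57824658-57824679, minus strand; RefSeq, GRCh38.p14), and capitals mark its seed, bases 2 to 8.
miR-26a-5p: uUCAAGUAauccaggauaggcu

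FRAT1 and FRAT2 are paralogs that lie 10.6 kb apart on chromosome 10 and face each other, FRAT1 on the plus strand (chr10:97319271-97321915) and FRAT2 on the minus strand (chr10:97332497-97334729). The 250 bases before each start are printed 5′ to 3′ from RefSeq, GRCh38.p14, as chr10:97334730-97334979 (minus strand) for FRAT2 and chr10:97319021-97319270 (plus strand) for FRAT1. Capitals mark every run of at least 12 bases that both promoters hold.
FRAT2: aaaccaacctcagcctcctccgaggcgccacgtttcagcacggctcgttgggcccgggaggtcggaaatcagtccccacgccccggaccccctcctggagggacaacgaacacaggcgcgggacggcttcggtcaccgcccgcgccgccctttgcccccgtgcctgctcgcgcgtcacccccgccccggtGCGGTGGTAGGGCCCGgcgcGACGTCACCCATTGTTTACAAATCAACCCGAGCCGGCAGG
FRAT1: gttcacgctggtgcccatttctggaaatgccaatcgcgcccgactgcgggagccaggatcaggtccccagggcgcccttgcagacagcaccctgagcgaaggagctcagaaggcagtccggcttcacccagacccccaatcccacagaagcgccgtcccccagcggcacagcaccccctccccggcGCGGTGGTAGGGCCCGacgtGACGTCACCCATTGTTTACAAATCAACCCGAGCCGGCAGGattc

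The promoters share 56 bases in such runs, all near the start, and the longest run is 40 bases. In a global alignment 79.2% of the columns were identical over the last 100 bases, against 62.5% over all 250. Motifs were searched on both strands in the window from 250 bases before to 50 after the start. The forkhead core TGTTTAC lies in the shared run, 28 bases before the start of FRAT2 and 32 before that of FRAT1, and is held by 3.42% of all 35116 promoters. The cAMP response element TGACGTCA, held by 1.85% of promoters, occurs in FRAT1 and not in FRAT2. It lies 45 bases before the start and overlaps the left end of the long shared run. FRAT2 reads CGACGTCA at the same place of that run, which differs in the first letter only. The TCF/LEF core (CTTTGAT or CTTTGAA, 6.86% of promoters) occurs in no promoter of the 7 members that have one in the table. The E-box CACGTG (7.26% of promoters) occurs only in 1 of the APC promoters. A match is a description of letters, not a binding site.

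FRAT2 RNA was lower with miR26a in every line. All levels are log2 intensities. The FRAT2 level was 5.30 on the miR26a array against 6.13 on the empty array of Raji, 6.78 against 7.56 in Namalwa, and 6.92 against 7.53 in Ramos. Within each line the miR26a array was the lower, while between lines the groups overlapped, since the empty array of Raji lay below the miR26a arrays of both other lines. The changes were -0.83 in Raji, -0.78 in Namalwa and -0.61 in Ramos, which left 56.2%, 58.4% and 65.4% of the empty level. The mean paired change was -0.74 ± 0.11 (SD, n = 3 pairs), a 1.67-fold lower level. By the size of its mean change FRAT2 stood at place 15 of the 12012 genes tested, 1.37% of which had a mean change of at least 0.5 log2 in size. Lower by at least 0.5 log2 in all 3 lines were 21 genes, or 0.175%. As FRAT2 was selected on this change, a high place was fixed in advance and is a description only.

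RNA quality set the Namalwa empty array apart: for ACTB, the 3′ control probe set exceeded the 5′ one by 3.58 log2 there and by 1.80 to 1.98 elsewhere. Without Namalwa the mean FRAT2 change was -0.72. Array medians lay between 4.36 and 4.44. Of the B-cell markers, 7 of 7 with a probe set were above the level minimum of 4.42 on all 6 arrays, among them PAX5 (10.0 to 10.9) and CD79B (9.66 to 10.1).

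FRAT1, the paralog with the same GSK3-binding role, did not share this change. The FRAT1 level was 5.13 on the miR26a array against 4.98 on the empty array in Raji, 5.33 against 5.09 in Namalwa, and 5.02 against 5.06 in Ramos. The 6 arrays lay between 4.98 and 5.33, and the groups overlapped. The mean change was 0.12 (SE 0.11, limma adjusted p = 0.703; 95% interval -0.12 to 0.35). FRAT2 minus FRAT1, as a difference of changes, was -0.98 in Raji, -1.02 in Namalwa and -0.57 in Ramos. FRAT2 was selected on its change, so a gap to a gene not selected in that way was likely beforehand and is a description only. Each gene has 1 probe set, and cross-hybridisation between these paralogs was not tested.

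**Figure D1:**
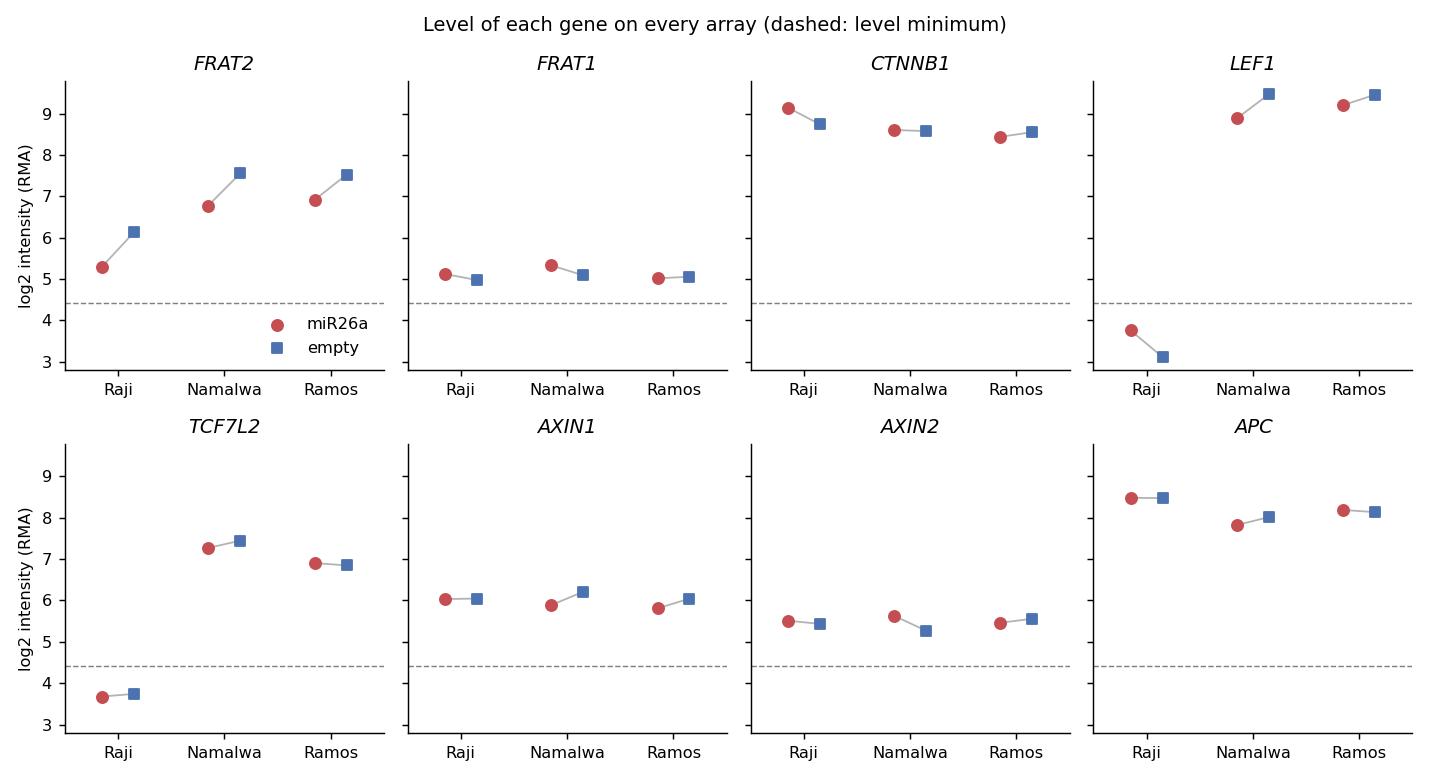
Log2 RMA intensity of the 8 genes on all 6 arrays, with the miR26a array (circle) left of the empty array (square) of each line and the level minimum of 4.42 dashed. FRAT2 is lower on the miR26a array of every line, and the LEF1 and TCF7L2 levels of Raji lie below the minimum while those of Namalwa and Ramos lie above it.

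The other genes lie elsewhere in the same build: CTNNB1 at chr3:41199505-41240443, LEF1 at chr4:108047548-108168932, APC at chr5:112707498-112846239 and TCF7L2 at chr10:112950247-113167678. AXIN1 is at chr16:287440-352723 and AXIN2 at chr17:65528563-65561648. None of these members, nor FRAT1, passed for miR26a minus empty. Of the 7 genes besides FRAT2, 0 passed (limma, Benjamini-Hochberg over all genes, adjusted p from 0.501 to 0.929) and 0 had an unadjusted p under 0.05. Of all 12012 genes tested, 0% were called, while 1548 had an unadjusted p under 0.05. The mean changes of the 7 ran from -0.19 to 0.12, against a median of -0.01 over all genes.

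Of the scaffolds, AXIN1, the limiting scaffold of the destruction complex, was lower in all 3 lines. Its level was 6.03 on the miR26a array against 6.05 on the empty array in Raji, 5.89 against 6.21 in Namalwa, and 5.81 against 6.04 in Ramos. The difference in Raji was close to 0, and the mean change was -0.19 (SE 0.11, limma adjusted p = 0.501). Among all genes 35.1% had the same sign in all 3 lines, 19.6% being lower and 15.5% higher. AXIN2, a scaffold that is also a common WNT target gene, was at 0.11 (SE 0.12, limma adjusted p = 0.742), and APC, which brings beta-catenin to the complex, at -0.04 (SE 0.10, limma adjusted p = 0.905). The AXIN2 change was 0.08 in Raji, 0.36 in Namalwa and -0.09 in Ramos, while another AXIN2 probe set near the level minimum (mean 4.49) was lower in all 3 lines, with a mean of -0.37. The direction for AXIN2 thus depends on the probe set, and it passed by neither.

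CTNNB1, the beta-catenin gene, had levels of 9.15, 8.61 and 8.44 on the miR26a arrays of Raji, Namalwa and Ramos, against 8.75, 8.58 and 8.55 on the empty arrays. Its change was largest in Raji, at 0.40, and was 0.03 in Namalwa and -0.11 in Ramos (mean 0.11, SE 0.12, limma adjusted p = 0.777). LEF1, which partners beta-catenin on DNA, differed most between lines: its change was 0.64 in Raji, where both arrays lay below the level minimum, -0.58 in Namalwa and -0.25 in Ramos. Its mean was -0.06 (SE 0.20, limma adjusted p = 0.929), and without Namalwa it was 0.20. TCF7L2, another DNA-binding partner, was at -0.06 (SE 0.10, limma adjusted p = 0.860), with -0.06, -0.17 and 0.06 in Raji, Namalwa and Ramos.

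**Figure D2:**
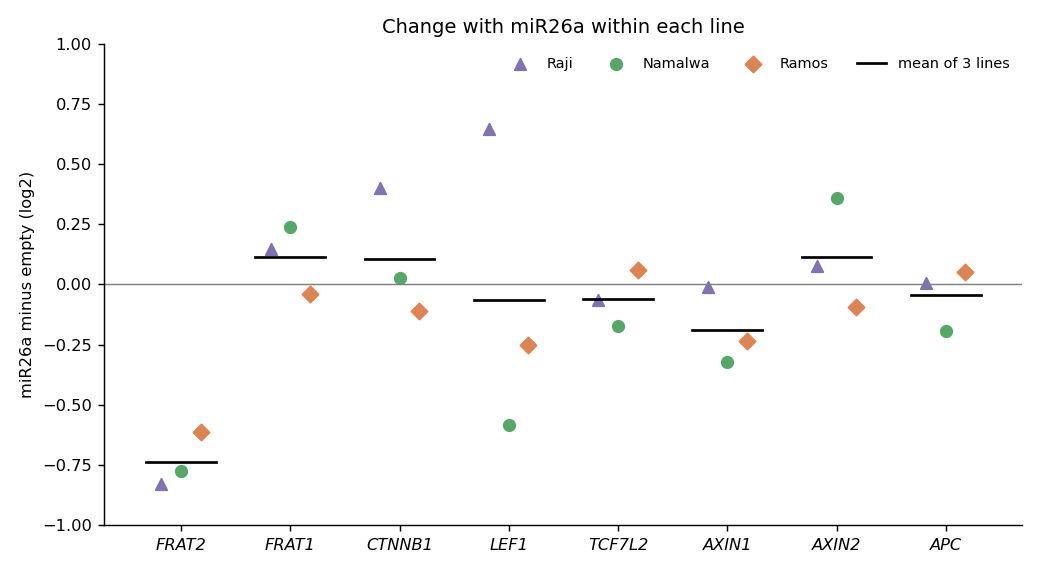
Log2 difference between the miR26a and the empty array of the same line for the 8 genes; symbols are the lines and bars the mean of 3 lines. FRAT2 lies between -0.83 and -0.61, while the means of the other 7 genes lie between -0.19 and 0.12.

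The other genes of the pathway were read from 7 lists by role, 119 genes in all, of which 114 had a probe set and 71 a mean level at or above the minimum. Of the 70 besides FRAT2, 0 passed for miR26a minus empty (limma, 0% of all genes). An unadjusted p under 0.05 was found for 5 of the 70, beside 1548 of all 12012 genes, so the share was not above that of all genes. Of these 70, 17.1% were lower and 12.9% higher in all 3 lines, against 19.6% and 15.5% of all genes. The median change was -0.01, beside -0.01 over all genes. Named here are, for each list, up to 2 genes other than the members with the widest change among those of 1 sign in all 3 lines, none past the threshold. DVL2, a Dishevelled protein, was at -0.30 (limma adjusted p = 0.289), the ligand WNT5A at -0.30 (limma adjusted p = 0.315), and NLK, a kinase that acts on TCF and LEF proteins, at -0.29 (limma adjusted p = 0.309). PPP2R1A, a scaffold of protein phosphatase 2A, was at 0.30 (limma adjusted p = 0.355) and the ubiquitin ligase ZNRF3, which removes Frizzled receptors, at -0.23 (limma adjusted p = 0.366). The transcription factor SOX4 was at 0.23, NKD2, which binds Dishevelled, at 0.21, the ligand WNT10A at 0.20, the corepressor CTBP2 at -0.19, the receptors FZD5 and FZD4 at -0.18 and 0.11, and the tankyrase TNKS2 at -0.15. GSK3A and GSK3B, the kinases that FRAT proteins bind, were at 0.04 and 0.07 (limma adjusted p = 0.934 and 0.848); they fall outside the rule for named genes and were picked with their values in view.

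The genes whose pattern was most like that of FRAT2 were taken over all 12012 genes. Across the 6 arrays the highest correlations with FRAT2 were those of BLM, a DNA helicase (r = 0.997), PHF13, a reader of methylated histone H3 (r = 0.997), and HMGB1, a chromatin protein (r = 0.995). The arrays share lines and groups, and 178 genes had r above 0.95, so these values describe a common profile. BLM was at -0.64 in Raji, -0.55 in Namalwa and -0.54 in Ramos, and HMGB1 at -0.22, -0.20 and -0.17. By the paired changes alone the closest were the repair polymerase POLQ (root mean square difference 0.110 log2), C1orf216 (0.115) and the histone methyltransferase NSD2 (0.136). FRAT2 was selected on these changes, so the match is a description only. C1orf216 lay below the level minimum on the miR26a arrays of Namalwa (4.03) and Ramos (4.14). POLQ was at -0.67 in Raji, -0.69 in Namalwa and -0.56 in Ramos. For FRAT1 the closest were RGP1, ABCA11P and PPCS (r = 0.991, 0.977 and 0.969), and for LEF1 they were TMEM263, PTGR3 and HPS4 (r = 0.9996, 0.9991 and 0.9990, with 1046 genes above 0.95).

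Between the lines the pathway genes differed far more. Raji had less FRAT2 RNA than Namalwa and Ramos, and its LEF1 and TCF7L2 levels lay below the level minimum. The comparisons of Raji share its 2 arrays. Of the 8 members, 4 passed for Raji minus Namalwa, 1 higher and 3 lower, against 46.1% of all genes called. For Raji minus Ramos 4 passed as well, 1 higher and 3 lower, against 50.5% of all genes. In both comparisons FRAT2, LEF1 and TCF7L2 were lower (3 of 8, against 18.6% of all genes) and 0 were higher (against 17.5%). The counts of 4 are near the background and show nothing about the members as a group, so the sizes are given gene by gene. In bulk RNA of a line, fewer expressing cells and less RNA per cell cannot be told apart.

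FRAT2 averaged 5.71 ± 0.59 in Raji, 7.17 ± 0.55 in Namalwa and 7.22 ± 0.43 in Ramos (SD, n = 2 arrays each, 1 per group). Both Raji arrays were below all 4 others. The difference was -1.45 (SE 0.13, limma adjusted p = 1.27e-05) for Raji minus Namalwa and -1.51 (SE 0.13, limma adjusted p = 8.86e-06) for Raji minus Ramos, which is 2.74-fold and 2.84-fold lower. These SEs rest on how alike the paired changes with miR26a were, and FRAT2 was selected on those changes. With no group block the limma adjusted p was 0.00672 against Namalwa and 0.00512 against Ramos. Differences larger in size were found in 7.09% and 7.46% of all genes. Namalwa and Ramos did not differ past the threshold, at -0.05 (95% interval -0.34 to 0.23, limma adjusted p = 0.825). FRAT1 did not pass in any pair of lines: it was at -0.16 for Raji minus Namalwa, 0.01 for Raji minus Ramos and 0.17 for Namalwa minus Ramos (limma adjusted p = 0.341, 0.942 and 0.421).

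LEF1 was 3.76 and 3.12 on the miR26a and empty arrays of Raji, against 8.89 and 9.47 in Namalwa and 9.21 and 9.46 in Ramos. Both Raji arrays lay below the level minimum of 4.42, and the lowest of the other 4 was at 8.89. The differences were -5.74 (limma adjusted p = 6.93e-08) against Namalwa and -5.90 (limma adjusted p = 5.55e-08) against Ramos, and 0.183% and 0.175% of all genes differed by more. As the Raji signal lies below the level minimum these are no exact folds: the means of Namalwa and Ramos exceeded the level minimum itself by 4.76 and 4.91 log2. All 3 LEF1 probe sets were lower in Raji than in either other line, at -5.74, -2.61 and -0.36 against Namalwa. LEF1 is also a T-cell gene. Of 11 T-cell and NK-cell markers, CD3E (4.58 to 4.97), CD4 (4.91 to 5.41) and CD5 (5.26 to 5.87, also a gene of some B cells) were above the level minimum on all 6 arrays. CD3D, CD3G and CD2 were below it on all 6, at 3.92 to 4.31, 3.56 to 3.98 and 3.18 to 3.75. On the miR26a and empty arrays the summed linear intensity of the 11 was 246 and 262 in Raji, 214 and 220 in Namalwa, and 206 and 214 in Ramos. The sum was highest in Raji, but so were those of the B-cell, germinal centre, monocyte, fibroblast and red cell markers. For the monocyte markers it was 97.6 and 89.8 in Raji, against 69.3 and 69.6 in Namalwa and 68.4 and 67.2 in Ramos. The higher sum in Raji is thus not particular to T-cell genes. A part of T-cell RNA in the LEF1 values was not tested.

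TCF7L2 was 3.68 and 3.74 on the miR26a and empty arrays of Raji, against 7.27 and 7.45 in Namalwa and 6.91 and 6.85 in Ramos. The differences were -3.65 (limma adjusted p = 2.08e-08) for Raji minus Namalwa and -3.17 (limma adjusted p = 5.04e-08) for Raji minus Ramos. Both Raji arrays lay below the level minimum, which the means of Namalwa and Ramos exceeded by 2.94 and 2.45, so these are no exact folds. Its 7 probe sets were all lower in Raji, at -3.65 to -0.21 against Namalwa and -3.17 to -0.09 against Ramos. TCF7L2 was the only member to pass for Namalwa minus Ramos, at 0.48 (SE 0.13, limma adjusted p = 0.0322). Of all genes 14.7% were called there, 8.09% higher and 6.57% lower in Namalwa. Leaving out any single array of either line ended that call. For Namalwa the limma adjusted p was then 0.0714 (no miR26a array) and 0.187 (no empty array), and for Ramos 0.102 (no miR26a array) and 0.352 (no empty array).

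The scaffolds and beta-catenin differed little. AXIN1 and AXIN2 passed in no pair of lines, with differences from -0.06 to 0.12. APC was 8.48 on both arrays of Raji, against 7.82 and 8.02 in Namalwa and 8.19 and 8.14 in Ramos. It was higher in Raji than in Namalwa by 0.56 (SE 0.13, limma adjusted p = 0.00552), a call lost without the Namalwa miR26a array (adjusted p = 0.0560), and was at 0.32 for Raji minus Ramos (limma adjusted p = 0.0633). Of the 5 APC probe sets, 3 had positive differences for Raji minus Namalwa (0.56, 0.62 and 0.90) and 2 were at -0.04 and -0.01, with -0.53 and -0.63 for those 2 against Ramos. CTNNB1 was higher in Raji than in Ramos by 0.45 (SE 0.15, limma adjusted p = 0.0297) and was at 0.36 for Raji minus Namalwa (limma adjusted p = 0.0767). The call against Ramos was lost without the Raji miR26a array (adjusted p = 0.289) and without the Ramos miR26a array (adjusted p = 0.313). A dimmer CTNNB1 probe set went the other way, at -0.71 against Namalwa and -0.66 against Ramos (limma adjusted p = 0.00763 and 0.00970), so the direction depends on the probe set.

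**Figure D3:**
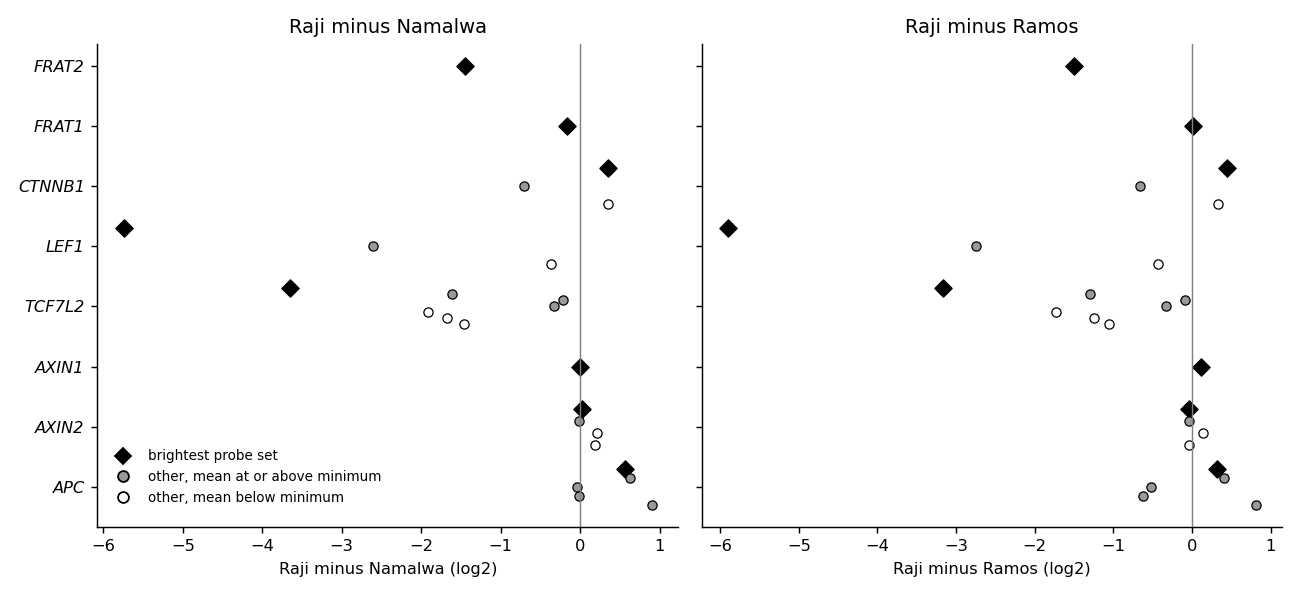
Log2 difference of Raji minus Namalwa (left) and Raji minus Ramos (right) for all 25 probe sets of the 8 genes, means of 2 arrays per line; diamonds are the brightest probe set, grey circles others with a mean at or above the level minimum, open circles those below it. All LEF1 and TCF7L2 probe sets lie below 0 in both panels, whereas those of CTNNB1 and APC fall on both sides.

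Of the 71 tested pathway genes, 26 (36.6%) were lower and 9 (12.7%) higher in Raji than in Namalwa, against 23.4% lower and 22.8% higher among all genes. For Raji minus Ramos, 24 (33.8%) were lower and 13 (18.3%) higher, against 24.4% and 26.1% of all genes. Without the Namalwa empty array fewer were called in either direction for Raji minus Namalwa. Fewer genes were called over all genes too, so the fall is not particular to the pathway. The median difference was -0.10 against Namalwa and -0.04 against Ramos, beside 0.05 and 0.06 over all genes. As deposited, 6 of the 71 (8.45%) were lower in Raji by at least 8-fold in both comparisons, against 1.29% of all genes: LEF1, TCF7L2, ROR1, LGR4, ZNRF3 and CTBP2. The Raji means of all but CTBP2 lay below the level minimum, so those sizes are no exact folds. Those genes passed the level filter only through Namalwa and Ramos, where they were high. The lists were also chosen with earlier results of these data known, so these shares are a description and lend no support. With Raji means below the minimum set to it, an alternative chosen after seeing the data, 2 of the 71 (2.82%), LEF1 and CTBP2, were lower by at least 8-fold in both, against 0.724% of all genes.

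Of the ligands, 8 of 18 with a probe set were tested. WNT10A was 1.51 log2 higher in Raji than in Ramos (limma adjusted p = 7.36e-06). WNT5A, mostly known for signalling without beta-catenin, followed the order Namalwa, Raji, Ramos, with -1.02 for Raji minus Namalwa (limma adjusted p = 2.74e-04) and 1.83 for Namalwa minus Ramos (limma adjusted p = 5.36e-05). The WNT5A levels were 5.95 and 6.28 on the miR26a and empty arrays of Raji, 6.89 and 7.38 in Namalwa and 5.27 and 5.33 in Ramos, with no overlap between lines.

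Of 9 tested receptors, 6 were lower and 0 higher in Raji than in Namalwa, against 23.4% lower and 22.8% higher of all genes. Against Ramos 6 were lower and 1 higher, beside 24.4% and 26.1% of all genes. ROR1, a WNT5A receptor, was 2.94 and 3.42 on the miR26a and empty arrays of Raji, against 6.98 and 7.13 in Namalwa and 8.26 and 7.87 in Ramos. LGR4, an R-spondin receptor, was 2.06 and 1.85 in Raji, against 6.61 and 7.07 in Namalwa and 6.38 and 6.39 in Ramos. Both Raji arrays were below the level minimum for each, so the differences are no exact folds. The means of Namalwa and Ramos exceeded that minimum by 2.63 and 3.65 for ROR1 and by 2.42 and 1.96 for LGR4. The ROR1 difference was -3.88 against Namalwa and -4.89 against Ramos (limma adjusted p = 1.87e-07 and 3.59e-08), and the LGR4 difference -4.89 and -4.43 (limma adjusted p = 1.72e-08 and 3.01e-08). FZD2, a Frizzled receptor, was lower in Raji than in Namalwa, at -1.25 (limma adjusted p = 1.02e-04), and ROR1 was lower in Namalwa than in Ramos, at -1.01 (limma adjusted p = 0.00645).

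Of the antagonists and receptor-turnover genes only 4 of 20 were tested. ZNRF3, a ligase that is itself a WNT target gene, was 3.22 and 3.43 on the miR26a and empty arrays of Raji, against 7.04 and 7.31 in Namalwa and 7.76 and 7.98 in Ramos. The differences were -3.85 and -4.55 (limma adjusted p = 1.25e-08 and 4.03e-09). They are no exact folds either, as both Raji arrays lay below the level minimum, which the means of Namalwa and Ramos exceeded by 2.75 and 3.45. For Raji minus Ramos, KREMEN1, a DKK coreceptor, was at -1.77 and its relative KREMEN2 at 1.40 (limma adjusted p = 3.18e-06 and 7.35e-05).

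Of 20 tested nuclear partners, 7 were lower and 1 higher in Raji than in Namalwa, against 23.4% lower and 22.8% higher of all genes. Against Ramos 8 were lower and 3 higher, beside 24.4% and 26.1% of all genes. Besides LEF1 and TCF7L2, the corepressor CTBP2 averaged 5.38 in Raji, 9.19 in Namalwa and 8.87 in Ramos, above the level minimum throughout, with differences of -3.81 and -3.49 (limma adjusted p = 1.32e-08 and 2.00e-08). Other probe sets were checked for the members only, so CTBP2, ROR1, LGR4 and ZNRF3 each rest on the brightest probe set. The corepressor TLE2 was lower in Raji than in Namalwa, at -1.47 (limma adjusted p = 1.17e-05). BCL9L, a beta-catenin coactivator, was higher in Raji than in Namalwa by 1.39 and than in Ramos by 1.06 (limma adjusted p = 1.14e-04 and 5.95e-04). JUP, or plakoglobin, was 1.21 higher in Namalwa than in Ramos (limma adjusted p = 0.00154).

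Of 11 tested direct WNT target genes, 5 (45.5%) were lower and 2 (18.2%) higher in Raji than in Namalwa, against 23.4% lower and 22.8% higher of all genes. Against Ramos 4 (36.4%) were lower and 2 higher, beside 24.4% and 26.1% of all genes. LEF1, AXIN2 and ZNRF3 are on this list too. EDN1, the vasoactive peptide endothelin, was higher in Raji by 1.21 and 1.31 than in Namalwa and Ramos (limma adjusted p = 0.00358 and 0.00202). Its levels were 5.44 and 6.50 on the miR26a and empty arrays of Raji, 4.73 and 4.79 in Namalwa and 4.79 and 4.52 in Ramos. The change of -1.06 within Raji was thus close in size to the differences between lines. MYC and the inhibitor of DNA binding ID2 were lower in Raji than in Ramos, at -1.14 and -1.10 (limma adjusted p = 8.62e-05 and 8.78e-05). SOX4 was 1.16 higher in Namalwa than in Ramos (limma adjusted p = 5.73e-04). Of 17 tested genes of the destruction complex and its turnover, 4 (23.5%) were lower and 3 (17.6%) higher in Raji than in Namalwa, near the 23.4% and 22.8% of all genes, and 4 were lower and 1 higher than in Ramos (24.4% and 26.1% of all genes). Of 7 of the Dishevelled and FRAT relay, 3 were lower and 1 higher in Raji than in Namalwa, and 2 were lower and 1 higher than in Ramos, beside the same shares. Differences of at least 1 log2 between lines were found there for FRAT2 alone.

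**Figure D4:**
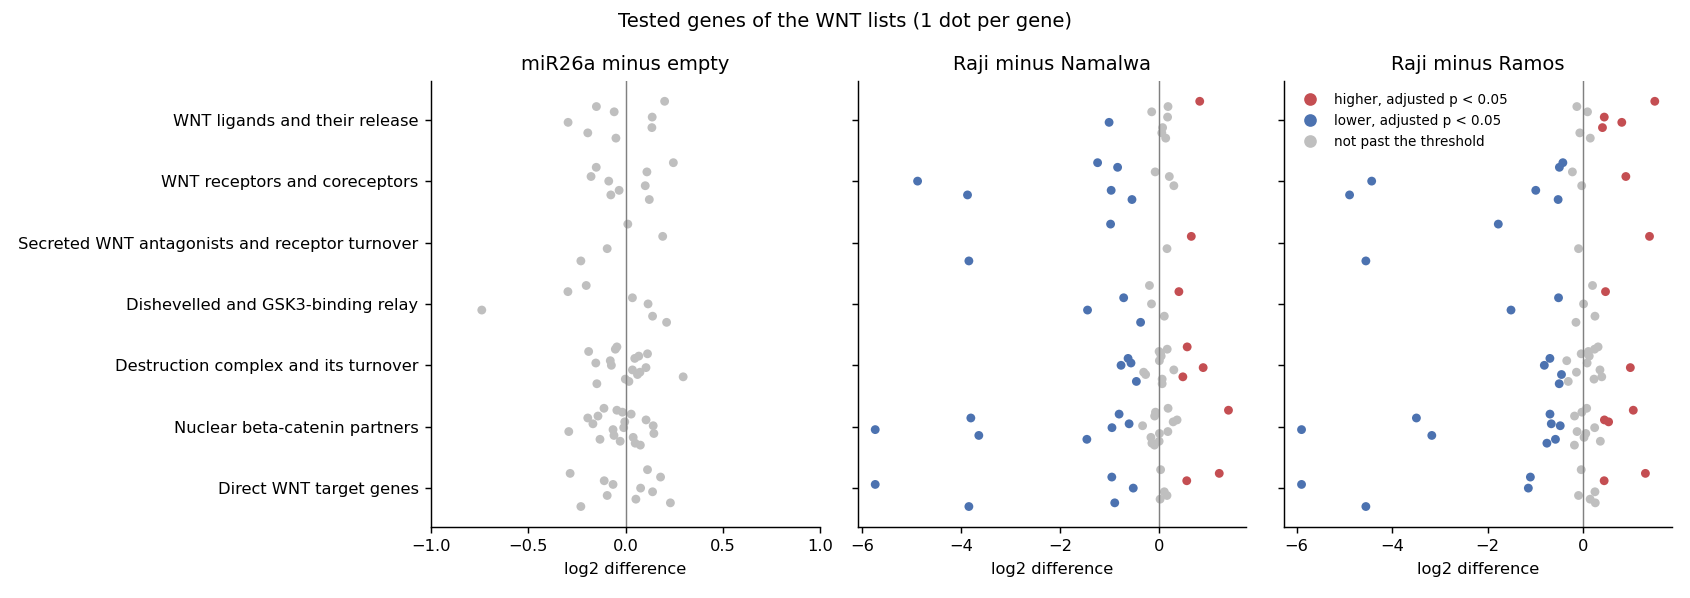
Log2 differences of the tested pathway genes, 1 dot per gene (genes on more than 1 list have a dot in each), by list (rows) for miR26a minus empty, Raji minus Namalwa and Raji minus Ramos; red and blue dots passed as higher and lower, grey dots did not. In the left panel no dot passed, and FRAT2, which was selected on this change, is at -0.74 and shown without a test. In the other panels the dots below -3 are LEF1, TCF7L2, ROR1, LGR4, ZNRF3 and CTBP2.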

How the data were processed

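The deposited values are log2 intensities, which the authors made with RMA (background correction, quantile normalisation, probe summary), named with GCOS and BRB Array Tools per the labels' design text and the submitters' processing notes, without versions. RMA would hide a shift common to all RNAs. The table holds 54675 probe sets, 62 of them controls; 41091 carry 1 gene symbol, 1801 several and 11721 none, and 41037 symbols were matched by Entrez ID to a RefSeq table of GRCh38.p14. The brightest probe set stood for a gene, and the level minimum was 4.42, the median over non-control probe sets. By mean level 12012 of 19775 genes reached it and were tested. Of the members, 8 of 8 passed that filter, LEF1 and TCF7L2 only through their levels in Namalwa and Ramos. It is no detection call.

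limma 3.58.1 (R 4.3.3) was fitted to all 12012 genes, blocking on the line to compare miR26a with empty and on the group to compare lines. Calls used Benjamini-Hochberg adjusted p-values under 0.05. The line pairs the arrays: deviations from the group means correlated at 0.950 in Raji, 0.861 in Namalwa and 0.917 in Ramos, and at 0.388 or less between lines. The fits were tested on simulated data. Biopython 1.88 aligned the promoters. No batch or scan date is given in the sources used here.

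The members and lists were chosen with earlier results of these data known. Named were all members; per list and pair of lines up to 4 other genes past the threshold with at least 1 log2 difference; per list the 2 other genes with the widest change of the same sign in 3 lines; and the 3 genes most like FRAT2, FRAT1 and LEF1 in pattern. Other scalings, level minimums, probe set rules, priors, blocks and left-out arrays were tried.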

Additional observations from a re-analysis of the deposited data

Results flagged for a closer look

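LEF1 moved in opposite directions between lines with miR26a. Its change was 0.64 in Raji, against -0.58 in Namalwa, which is a difference of 1.23 log2 between the 2 lines. Each line gave 1 array per group, so the difference was not tested, and both Raji arrays lay below the level minimum. The other LEF1 probe set above the minimum was at 0.17 in Raji and -0.04 in Namalwa.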

How the results depend on the processing

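FRAT2 was lower with miR26a under all 11 alternatives, with mean changes from -0.80 to -0.69. It was selected on this change, has a single probe set and was lower in every line. Most of the alternatives could therefore not change its sign, and their count lends no support. The line pairs the arrays, and the fit with no replicate block also called 0 genes for miR26a minus empty. Other settings called 50 genes there (level minimum at the 75th percentile) and 102 (intensity trend and robust prior), and leaving out a line 0 to 203: 0 without Namalwa, 203 without Raji and 23 without Ramos. Namalwa minus Ramos called 870 to 983 genes without 1 array, against 1761 in all. Members called there were 0 at the 75th percentile, 0 with the mean of all probe sets and 0 without any 1 array. Without the Namalwa empty array, an alternative chosen after seeing the data, 5 pathway genes were higher and 3 lower in Namalwa than in Ramos, against 10 and 6. Calls over all genes fell there as well, as given above, so this fall is not particular to the pathway. Setting Raji means below the level minimum to it left 2 of the 6 pathway genes lower in Raji by at least 8-fold in both comparisons.

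Of 360 values of single members under alternatives, 310 kept direction and call, 9 lost a call, 9 gained 1 and 32 changed sign. All but 2 of the sign changes were in values without a call in either setting. In those 2, the probe set with the highest interquartile range gave CTNNB1 -0.71 and -0.66 for Raji minus Namalwa and minus Ramos. That rule also gave -0.010 for CTNNB1 and -0.37 for AXIN2 in miR26a minus empty, and -0.016 for AXIN2 in Raji minus Namalwa. The mean of all probe sets gave 0.0056 for LEF1, 0.0030 for TCF7L2, -0.058 for AXIN2 and 0.053 for APC in miR26a minus empty, -0.0030 for CTNNB1 in Raji minus Namalwa and 0.0065 for AXIN2 in Raji minus Ramos. Centring and quantile normalisation gave 0.040 and 0.083 for AXIN1 in Raji minus Namalwa, and quantile normalisation -0.00030 for FRAT1 in Raji minus Ramos.

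Leaving out a line moved miR26a minus empty over -0.042 to 0.21 for CTNNB1, -0.42 to 0.20 for LEF1, -0.0097 to 0.22 for AXIN2 and -0.093 to 0.029 for APC. Leaving out an array moved Raji minus Namalwa over -0.14 to 0.13 for AXIN1 and -0.16 to 0.21 for AXIN2, and Raji minus Ramos over -0.10 to 0.13 for FRAT1, -0.019 to 0.25 for AXIN1 and -0.19 to 0.12 for AXIN2. Namalwa minus Ramos ran over -0.15 to 0.041 for FRAT2, -0.069 to 0.26 for CTNNB1, -0.55 to 0.23 for LEF1 and -0.24 to 0.12 for AXIN2. A lone remaining array of a line was assumed to vary like the others. CTNNB1 for Raji minus Namalwa and APC for Raji minus Ramos gained calls under 4 and 5 alternatives. Except where fewer arrays were fitted, the cause was not tested. Signals near the level minimum, as for LEF1 and TCF7L2 in Raji, limit fold sizes.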
